A study of Macaca mulatta with 6 samples.

Results

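Adrenal steroid output is switched on by the pituitary hormone ACTH, and the genes described here carry that signal from the cell surface to the mitochondrion and the nucleus. MC2R encodes the ACTH receptor, a G-protein-coupled receptor that raises cyclic AMP in cells of the adrenal cortex. STAR encodes the protein that moves cholesterol to the inner mitochondrial membrane, the acutely regulated step of steroid synthesis, and TSPO encodes an outer mitochondrial membrane protein that binds cholesterol. NR5A1 encodes SF-1, the nuclear receptor that drives transcription of MC2R, STAR and most steroid hydroxylase genes, and NR0B1 encodes DAX-1, a repressor of SF-1.

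The members were all probe sets whose platform annotation names MC2R, STAR, NR5A1, NR0B1 or TSPO. This gave 6 of the 22283 probe sets on the array and 4 of the 11963 genes with a probe set of their own: 3 probe sets for MC2R and 1 each for STAR, NR5A1 and TSPO, each naming that gene alone. No probe set was annotated to NR0B1 in the table used here, so that gene was not analysed here. A probe set is the group of short probes that together report one transcript, and its value is an intensity, a brightness on a linear scale.

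The animals were 6 female rhesus macaques, all ovariectomized, and RNA from the left adrenal of each was hybridised to its own human expression array. One animal each was collected at 3 AM, 7 AM, 11 AM, 3 PM, 7 PM and 11 PM, so no clock time had a second animal. All had lived for 3 months in 12 h of light and 12 h of dark, and food was withheld for 12 h before necropsy. When the lights came on was not given in the sources used here. The animals collected at 3 AM and 7 AM were aged 12 years, that at 11 AM 10 years 37 days, that at 3 PM 8 years 106 days, that at 7 PM 7 years 82 days and that at 11 PM 8 years 70 days, so age and clock time cannot be fully told apart. A 24-h cosine fitted to age alone had an R2 of 0.947 and peaked at 6.23 h.

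Removal of the ovaries was common to all animals, and there was no intact group. The whole gland was used, with cortex and medulla together, and in such bulk RNA fewer cells of a type and less RNA per cell cannot be told apart. The tissue label was borne out by cortex markers: all 6 measured ones passed the filter on level, with CYP17A1, the 17-hydroxylase, between 28647 and 40394, and MRAP was not measured on a single-gene probe set. All of the measured markers but INHA are steroid enzyme genes that are described again below as a pathway list. Median intensity per array lay between 154 and 173.1. Added hybridisation controls had a geometric mean of 414 on the 3 AM array and 538 on the 3 PM array, against 790 to 900 on the other 4 arrays, so the fits of the members are also given without them, whereas the other genes named were not refitted without these arrays.

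Tests were run on log2(intensity + 1) over the 11108 probe sets whose mean log2 value reached the median of 7.30 found over the whole array without controls. Of the 6 member probe sets 4 passed this filter: those of STAR, NR5A1 and TSPO, and 208568_at of MC2R, which passed narrowly with a mean of 7.34. The other MC2R probe sets, 217425_at (mean 6.82) and 217434_at (mean 6.27), were fitted together with all 22215 probe sets that are not controls. Because human probes were used on macaque RNA, clock times were compared within each probe set. The filter on level, the choice of the brightest probe set per gene, the summed marker intensities and comparisons of the size of swings did set probe sets side by side. They carry this limit.

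STAR, NR5A1 and TSPO all lay above their own means at 7 PM and 11 PM and below them at 3 AM and 3 PM, by less than 1 log2 unit throughout, while the 3 MC2R probe sets gave 3 different courses. No member passed the test of a 24-h rhythm. That test, limma's moderated F test of a 24-h cosine with Benjamini-Hochberg adjustment, called 0 of 11108 probe sets at an adjusted p under 0.05, a background of 0%. At an unadjusted p under 0.05 it called 604, or 5.44%. None of the 4 members in that fit was among them, and neither were the remaining 2 in the fit with no filter on level, where the background was 5.14%.

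**Figure D1:**
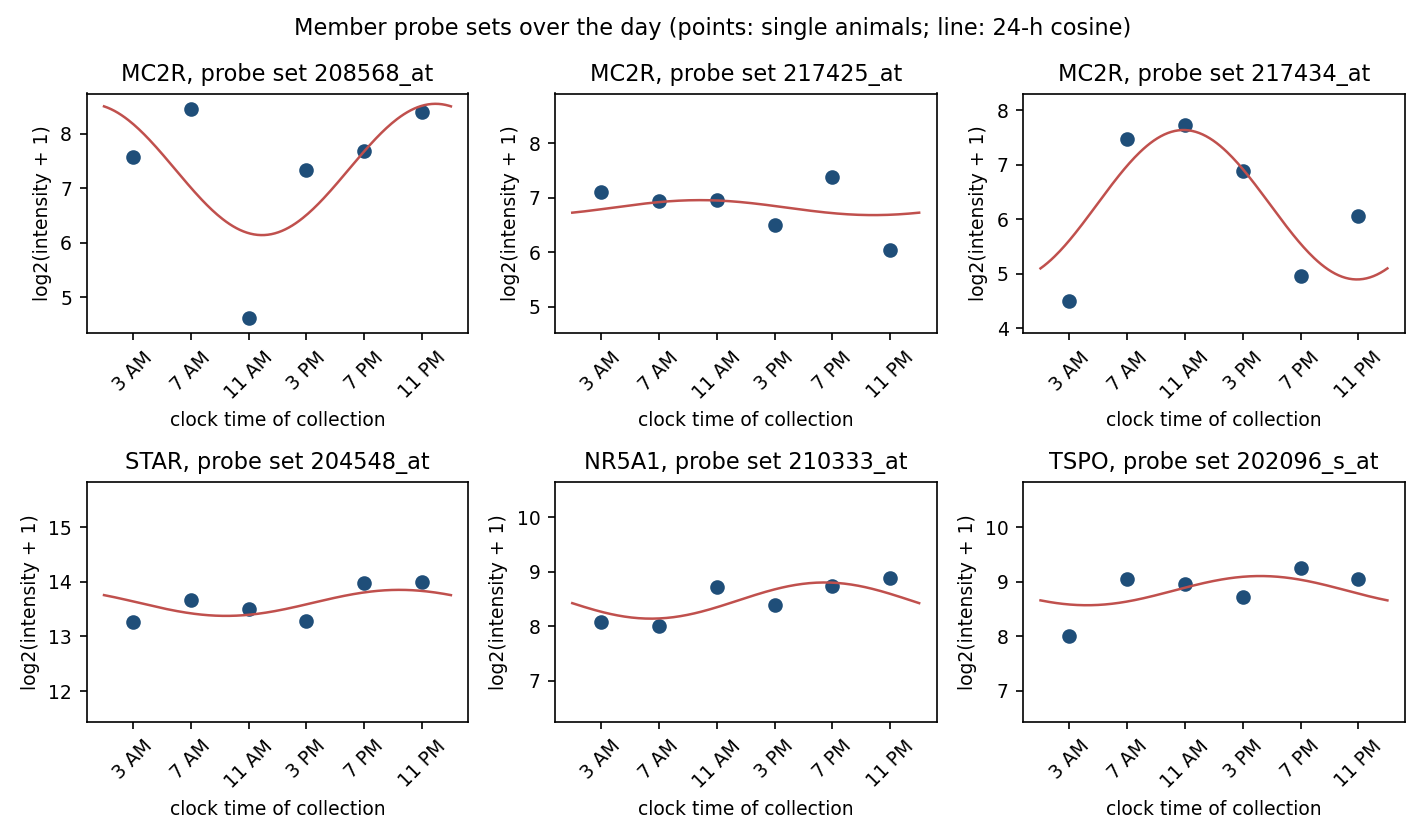
Each panel plots log2(intensity + 1) of 1 member probe set against the clock time of collection, with a point per animal (n = 1 per time) and the fitted 24-h cosine as a line. Every panel spans the same number of log2 units around its own centre. The panels of STAR, NR5A1 and TSPO are shallow, 208568_at of MC2R is lowest at 11 AM (4.62) and 217434_at of MC2R is highest there (7.72).

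The receptor gene MC2R was read by 3 probe sets. On 208568_at its intensity was 189.6 at 3 AM, 350 at 7 AM, 23.6 at 11 AM, 161 at 3 PM, 204 at 7 PM and 336.5 at 11 PM. The 11 AM array stood apart, 2.72 log2 units below the next lowest. It was the only one separated from its neighbour in rank by more than the moderated residual SD of the curve, 0.89. Moderated means that limma drew the SD of each probe set toward a value common to all probe sets in the fit. The other 5 arrays spanned 161 to 350.

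A single low array of this size was rare among the probe sets tested. The 11 AM value lay 3.27 log2 units below the mean of the other arrays. Of the 11108 probe sets 9 (0.0810%), 208568_at itself included, had a lowest array at least as far down. Among the 2419 tested probe sets with a mean within 0.5 log2 units of that of 208568_at, 4 did (0.165%), again with 208568_at counted. The filter cuts this window off below 7.30, so nearly all of the probe sets dimmer than 208568_at were not counted.

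The second MC2R probe set with a wide range ran the other way. On 217434_at the intensity was 21.5 at 3 AM, 177 at 7 AM, 209.7 at 11 AM, 117 at 3 PM, 30.1 at 7 PM and 65.9 at 11 PM. It was therefore highest on the array where 208568_at was lowest, and its low arrays were those of the evening and night. On 217425_at the intensity was 136 at 3 AM, 121 at 7 AM, 123 at 11 AM, 89.9 at 3 PM, 166 at 7 PM and 64.9 at 11 PM. This probe set was highest at 7 PM and lowest at 11 PM. None of the gaps between arrays next to each other in rank exceeded its moderated residual SD of 0.51.

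The fitted curves repeated this split. For 208568_at the peak came at 23.9 h, with a log2 peak-to-trough difference of 2.41 ± 1.03 (SE, 6 arrays), adjusted p = 0.866 by limma. For 217434_at it came at 10.9 h, near the trough of the first, with 2.74 ± 0.93 and an adjusted p of 0.944 by limma over all probe sets. For 217425_at it came at 9.84 h with 0.27 ± 0.59, adjusted p = 0.993 by limma. Probe sets of one gene share the RNA of the same animals, so they are no replicates, and the cause of their disagreement was not tested.

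The size of the 208568_at curve rested on 1 array: without 11 AM the log2 difference was 0.64, and the peak moved to 3.39 h. Without 7 AM it was 3.47, with an unadjusted p of 0.00535 and an adjusted p of 0.963 by limma, the adjusted p ranging from 0.544 to 0.977 over the alternatives of this probe set. Without both the 3 AM and the 3 PM array it was 4.87, more than the observed range of 3.83. The difference on 217434_at stayed between 2.42 and 4.30 when single arrays were left out, but was 8.97 with age as a covariate, more than its observed range. With a pseudocount of 50 in place of 1 the difference was 1.52 on 208568_at and 1.69 on 217434_at.

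STAR, which delivers the cholesterol substrate, had a log2 range of 0.74 over the arrays, against 3.83 on 208568_at of MC2R. These probe sets differ in level (mean log2 13.6 and 7.34), so the ranges are not read as a difference between the genes. The intensity of STAR was 9833 at 3 AM, 13054 at 7 AM, 11544 at 11 AM, 9938 at 3 PM, 16224 at 7 PM and 16413 at 11 PM. The 2 evening arrays were the highest, 1.67 times the lowest at the most. Between them and 7 AM, next in rank, lay a gap of 0.314 log2 units. It was the only gap above the moderated residual SD of 0.312. Before moderation the residual SD of the STAR curve was larger than this gap. The order of the arrays is thus not resolved by this yardstick.

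The STAR curve peaked at 21.4 h with a log2 peak-to-trough difference of 0.48 ± 0.36 (SE, 6 arrays), a ratio of 1.39, adjusted p = 0.919 by limma. It described 31.5% of the variance between arrays, but a cosine fitted to 6 arrays describes part of the variance even without a rhythm. For comparison, the median difference over all probe sets tested was 0.44, with a median standard error of 0.32. Without 11 PM the STAR difference was 0.29 and without 7 AM it was 0.77. Without 3 AM it was 0.73 with a peak at 0.320 h, without 3 PM it was 0.59, and without both it was 0.51.

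NR5A1, the SF-1 gene, had an intensity of 268 at 3 AM, 256 at 7 AM, 421 at 11 AM, 336 at 3 PM, 428 at 7 PM and 471.5 at 11 PM. In rank 11 PM, 7 PM and 11 AM came first, then 3 PM, then 3 AM and 7 AM. The gaps on either side of 3 PM were 0.33 log2 units, against a moderated residual SD of 0.31. Before moderation the residual SD of the NR5A1 curve was larger than both gaps, so these sets are not resolved. The highest array was 1.84 times the lowest. Of the 4 members fitted with a filter on level, NR5A1 had the curve that described the largest share of its variance, 47.7%, with the same limit as for STAR. The curve had a peak at 18.5 h and a log2 difference of 0.66 ± 0.36 (SE, 6 arrays), adjusted p = 0.884 by limma. Without the 3 AM and 3 PM arrays the difference was 0.78.

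TSPO, read by 202096_s_at, had an intensity of 256 at 3 AM, 528 at 7 AM, 496 at 11 AM, 418 at 3 PM, 608 at 7 PM and 526 at 11 PM. The suffix _s_at marks a probe set that can match several related transcripts in the maker's naming. The other 5 arrays lay within 418 to 608. The 3 AM array lay 0.71 log2 units below the next, the only gap over the moderated residual SD of 0.39. The curve peaked at 16.2 h with a log2 difference of 0.54 ± 0.45 (SE, 6 arrays), adjusted p = 0.928 by limma.

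That curve depended on the 3 AM array, without which the log2 difference was 0.31 and the peak fell at 0.815 h. Without both 3 AM and 3 PM it was 0.20. Several other measures were extreme on the same array. The summed intensity of the 8 chromaffin markers, all measured, was 14051 at 3 AM, against 20069 to 35580 at the other times, that of the 5 adipocyte markers was 3716, against 1287 to 3175, and the hybridisation controls were at their lowest there. The 7 measured of 8 macrophage markers, listed because macrophages also express TSPO, summed to 2393 at 3 AM and ran from 2148 at 7 PM to 2712 at 7 AM. The part of these in the TSPO value was not tested.

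The exact test that compares R2 of the curve over all 60 circular orders of the arrays also passed no member. It gave p = 0.35 for MC2R on 208568_at, exact p = 0.383 for NR5A1, exact p = 0.55 for STAR and exact p = 0.833 for TSPO, where the smallest possible p is 0.0167. After adjustment over all 11108 probe sets these were 0.932, 0.932, 0.952 and 0.979. At an unadjusted exact p under 0.05 the test called 412 probe sets, or 3.71%.

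STAR and NR5A1 shared the feature that 7 PM and 11 PM were their 2 highest arrays, which held for 871 of the 11108 probe sets, or 7.84%. Cortex markers leaned the same way as a sum: the summed intensity of the 6 measured ones was 53441 at 3 AM, 58365 at 7 AM, 64937 at 11 AM, 68194 at 3 PM, 79767 at 7 PM and 77230 at 11 PM. CYP17A1, at 28647 to 40394, was the largest part of that sum. CYP11A1, HSD3B2 and CYP11B1 had 7 PM and 11 PM as their 2 highest arrays, whereas CYP17A1, FDX1 and INHA did not. INHA was lower at 7 PM (3420) than at 3 AM (4331). Each array was also centred on the 6 cortex markers, an alternative chosen after seeing the data. The log2 range over the 6 arrays was then 0.59 for STAR, against 0.74 without centring, 0.56 for NR5A1, against 0.88, and 0.95 for TSPO, against 1.25. The fitted differences were then 0.29 for STAR, 0.19 for NR5A1 and 0.39 for TSPO. The range on 208568_at of MC2R was 3.99 with this centring and 3.83 without it. The 5 smooth muscle markers summed to 7448 at 7 PM and 2759 at 11 PM, their highest and lowest values, on the arrays where STAR and NR5A1 were highest. Endothelial markers summed to 1307 to 2313, fibroblast and capsule markers to 13279 to 16482 and the 2 measured of 4 red blood cell markers to 1501 to 2700 over the arrays. The part of cortex or other cell content in these values was not tested.

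**Figure D2:**
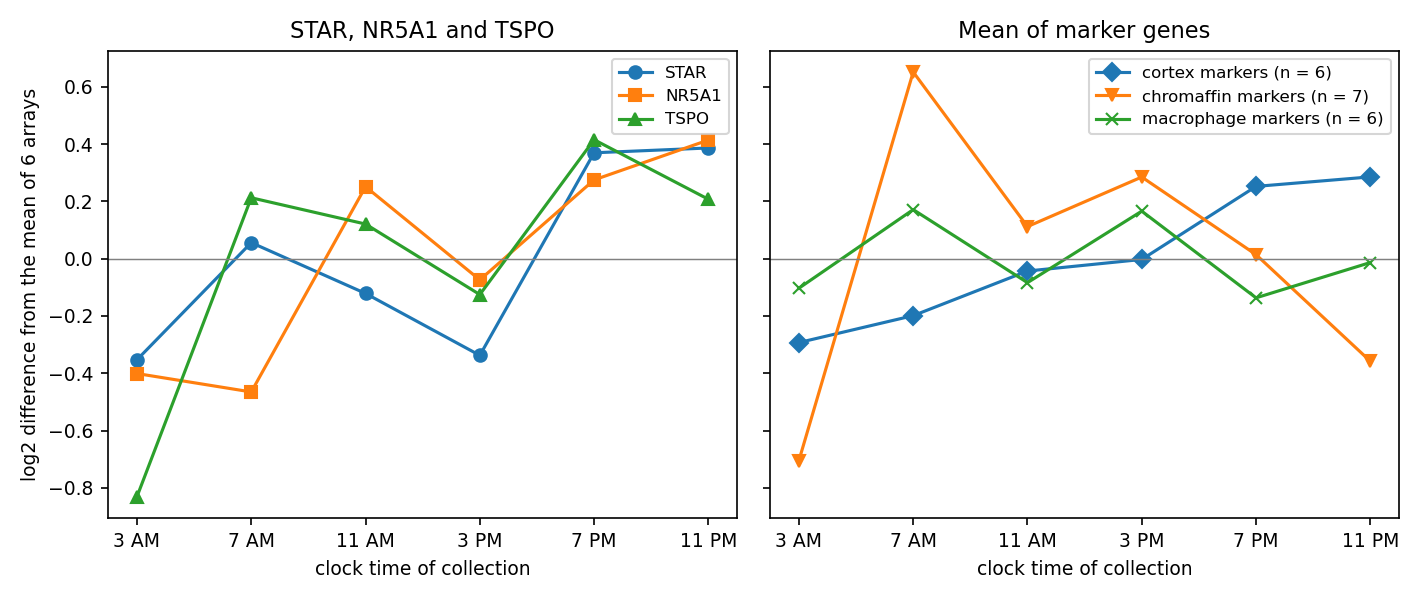
The left panel plots STAR, NR5A1 and TSPO and the right panel the mean of the tested cortex, chromaffin and macrophage markers, each as the log2 difference from its own mean over the 6 arrays, against clock time (1 animal per time, no error bars). All 3 genes and the cortex mean (0.25 at 7 PM, 0.29 at 11 PM) lie above 0 at the last 2 times, and the chromaffin mean is lowest at 3 AM (-0.70).

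The day arrays, those of 7 AM, 11 AM and 3 PM, were set against the night arrays, those of 7 PM, 11 PM and 3 AM, with limma. This contrast called 0 of 11108 probe sets after adjustment, and at an unadjusted p under 0.05 it called 326 higher by day (2.93%) and 288 lower by day (2.59%). With 3 arrays against 3, an exact two-sided test cannot go below 0.1. STAR averaged 11512 ± 1558 by day and 14157 ± 3745 by night (SD, n = 3 each), a log2 difference of -0.27 ± 0.25 (SE), adjusted p = 0.967 by limma. Without the 3 AM and 3 PM arrays it was -0.41. NR5A1 averaged 338 ± 82.6 by day and 389 ± 107 by night (SD, n = 3 each), with -0.19 ± 0.28 (SE), adjusted p = 0.977 by limma. For both genes the day and night arrays overlapped, whereas 5.19% of the 11108 probe sets had all day arrays below all night arrays.

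TSPO averaged 481 ± 56.8 by day and 463 ± 184 by night (SD, n = 3 each), and its log2 difference was 0.14 ± 0.32 (SE), adjusted p = 0.980 by limma. The sign turned without the 3 AM array, to -0.24.

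MC2R on 208568_at averaged 178 ± 164 by day and 243 ± 81.0 by night (SD, n = 3 each), a log2 difference of -1.08 ± 0.81 (SE), adjusted p = 0.951 by limma. Without 11 AM this difference was 0.02. On 217434_at the 3 day arrays, at 117 to 209.7, all lay above the 3 night arrays, at 21.5 to 65.9. This was a log2 difference of 2.19 ± 0.45 (SE), 4.56-fold, with an unadjusted p of 0.00229 and an adjusted p of 0.538 by limma over all probe sets, and an exact two-sided permutation p of 0.1, the smallest this design allows. With a pseudocount of 50 the log2 difference was 1.30, and this probe set lies below the filter on level. That made it the only one of the 6 members past the unadjusted threshold, where 2.93% of the 22215 probe sets were higher by day. Arrays that did not overlap, with day above night, were found in 5.54% of them. With the day taken as 11 AM to 7 PM the difference on 217434_at was 0.51, so the contrast depends on where the day is divided. On 217425_at the log2 difference was -0.04 ± 0.39 (SE), with overlapping arrays.

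**Figure D3:**
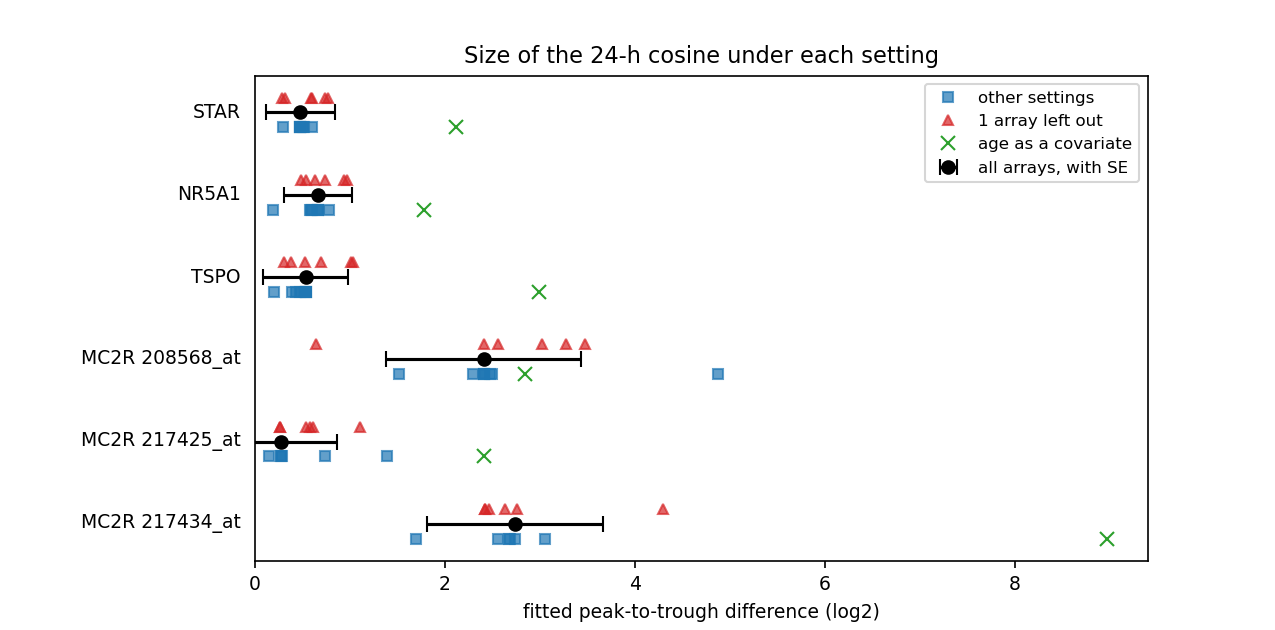
The fitted log2 peak-to-trough difference of each member probe set is shown along the x axis. Black points with bars are the value from all 6 arrays with its standard error, red triangles the fits with 1 array left out, blue squares other settings and green crosses the fit with age as a covariate. STAR, NR5A1 and TSPO stay at or below 1.03 except with age as a covariate (2.12, 1.78 and 2.99), and 208568_at of MC2R drops to 0.64 when the 11 AM array is left out.

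The 4 genes were compared with each other over the 6 arrays, taking 208568_at for MC2R, which gave 6 pairs that all share the same animals and arrays. STAR and TSPO had the highest correlation of the 6 on the deposited scale (Pearson r = 0.78, exact permutation p = 0.0306, adjusted over the 6 pairs 0.183; Spearman rho = 0.83, exact p = 0.0583, adjusted 0.35). Without 7 PM and 11 PM, the arrays farthest from the median of STAR, r was 0.78. After quantile normalization it was 0.39 (exact permutation p = 0.496), below the 0.62 of NR5A1 and TSPO, the 0.52 of MC2R and STAR and the 0.49 of STAR and NR5A1. STAR and NR5A1 had r = 0.61 (exact permutation p = 0.203) and rho = 0.66 (exact p = 0.175), but r = -0.11 without those 2 arrays, so that relation rests on them. NR5A1 and TSPO had r = 0.57 (exact permutation p = 0.221) and rho = 0.31 (exact p = 0.564). No pair passed adjustment.

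MC2R was less alike to the other members on Pearson's measure. Its r was 0.36 with STAR, -0.29 with NR5A1 and 0.02 with TSPO (exact permutation p = 0.583, 0.706 and 0.949), and its rho was 0.60, -0.09 and 0.60 (exact p = 0.242, 0.919 and 0.242). Without 7 AM and 11 AM, the arrays farthest from its median, r was 0.74, 0.70 and 0.40.

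Age was set against the 4 genes in the same way. For NR5A1 the older animals had the lower values, with r = -0.81 (exact permutation p = 0.075, adjusted over the 4 genes 0.3) and rho = -0.87 (exact p = 0.0333, adjusted 0.133). Without the 2 animals aged 12 years, r was -0.03, so the relation rests on them. STAR had r = -0.52 and rho = -0.64 (exact permutation p = 0.281 and 0.2), and TSPO had r = -0.56 and rho = -0.49 (exact permutation p = 0.244 and 0.328). MC2R had r = -0.03 and rho = 0 (exact permutation p = 0.953 and 1). Without the 2 oldest animals, which leaves 4, r was -0.54 for STAR, -0.43 for TSPO and -0.87 for MC2R. The oldest animal left was that of 11 AM, whose array was the single low one of 208568_at (23.6). The r of MC2R was not computed without that array.

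The genes whose course was most like that of each member were read from the 7163 other tested genes, each on 1 probe set, by Pearson r over the 6 arrays as a description. For STAR these were DNPEP, an aspartyl aminopeptidase (r = 0.98), CBR1, a carbonyl reductase (0.98), and ADK, adenosine kinase (0.98). CBR1 had an intensity of 385 at 3 AM, 896 at 7 AM, 512.5 at 11 AM, 369 at 3 PM, 1127 at 7 PM and 1156 at 11 PM, a wider swing than that of STAR itself. For NR5A1 they were JADE1, a PHD-finger protein (r = 0.99), ADCY3, an adenylyl cyclase that makes cyclic AMP (0.98), and MDH2, mitochondrial malate dehydrogenase (0.97). ADCY3 had an intensity of 281 at 3 AM, 265 at 7 AM, 436 at 11 AM, 359 at 3 PM, 443 at 7 PM and 438 at 11 PM, with the same high and low arrays as NR5A1.

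For TSPO the most alike genes were PSMD3, a subunit of the proteasome's regulatory particle (r = 0.995), CSNK1G2, a casein kinase (0.99), and PPP2R2B, a regulatory subunit of protein phosphatase 2A (0.98). PSMD3 had an intensity of 321 at 3 AM, 584 at 7 AM, 570.5 at 11 AM, 479 at 3 PM, 708 at 7 PM and 588 at 11 PM. For 208568_at of MC2R they were CAPZB, which caps actin filaments (r = 0.98), the small GTPase RALB (0.98) and ELP3, the catalytic subunit of Elongator (0.97). CAPZB had its lowest intensity at 11 AM too, but only 2955, against 3363 to 3647 at the other times. With 6 arrays and this many genes close matches are common: 81 genes had r over 0.9 with STAR, 47 with NR5A1, 86 with TSPO and 36 with MC2R.

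Beyond the members, 4 lists of pathway genes were described, each gene on its brightest single-gene probe set. None of their genes passed adjustment over the 7164 genes tested, either for the 24-h cosine or for day against night by limma, where the background was 0% in both. At an unadjusted p under 0.05 the cosine called 5.56% of all genes, and day against night called 2.95% higher and 2.44% lower by day. Over all genes the median log2 peak-to-trough difference was 0.43 and the median day-minus-night difference was 0.00, with 50.9% of genes lower by day.

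Steroid enzymes work downstream of the cholesterol that STAR delivers, and SF-1 drives most steroid hydroxylase genes. The list used here also holds enzymes that are not hydroxylases, such as POR and SULT2A1. Of 14 listed, 12 were measured and 11 tested, with 0 past the unadjusted threshold for the cosine and a median log2 difference of 0.68. Their peaks lay between 15.9 h and 23.6 h, a span that holds the peaks of STAR, NR5A1 and TSPO. The share of all genes that peaked in this span was not counted, and all of these genes share the same 6 arrays. By day 9 of the 11 were lower and 2 higher (median log2 difference -0.27), where 50.9% of all genes were lower. SULT2A1 and CYB5A were past the unadjusted threshold. The mean log2 deviation of the list was -0.17 at 3 AM, -0.15 at 7 AM, -0.15 at 11 AM and -0.14 at 3 PM. It was 0.33 at 7 PM and 0.28 at 11 PM. The night array of 3 AM was thus as low as the day arrays, and the contrast rests on the 7 PM and 11 PM animals. In the same contrast the 7 tested chromaffin markers were all higher by day (median 0.59, 3 past the unadjusted threshold), and the 2 tested adipocyte markers were both lower (median -0.99, both past it). The part of these cell types in the day-minus-night differences was not tested. SULT2A1, which sulphates DHEA, had 180 at 3 AM, 160.4 at 7 AM, 143 at 11 AM, 134 at 3 PM, 313 at 7 PM and 249.8 at 11 PM. POR, which passes electrons to microsomal hydroxylases, was highest at 11 PM (919.7) and lowest at 3 PM (257). CYB5A, cytochrome b5, was named after its values were seen; its log2 day-minus-night difference was -0.59 ± 0.22 (SE).

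Genes that carry the ACTH signal onward from MC2R were mixed. Of 16 listed, 14 were measured and tested, with 0 past the unadjusted threshold in either test and a median log2 peak-to-trough difference of 0.44. By day 7 were higher and 7 lower (median 0.01). PDE8B, a phosphodiesterase that breaks down cyclic AMP, had its highest intensity at 7 PM (477.5) and its lowest at 7 AM (202), with a cosine of 0.87 ± 0.33 log2 units (SE). PRKAR2B, a regulatory subunit of protein kinase A, was highest at 11 PM (4914) and lowest at 3 PM (2901). MRAP, the accessory protein that brings MC2R to the cell surface, was not measured on a single-gene probe set.

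Of the partners and regulators of SF-1, 16 were listed, 14 measured and 10 tested, with 0 past the unadjusted threshold for the cosine and a median of 0.55. By day 8 had a difference above 0 and 2 below (median log2 difference 0.21), beside the chromaffin markers given above, and NCOA2 (0.01) and NR0B2 (0.01), which encodes SHP, were close to 0. NR4A1 and TCF21, named after their values were seen, were past the unadjusted threshold. NR4A1 encodes an orphan nuclear receptor induced by ACTH. Its intensity was 241 at 3 AM, 925 at 7 AM, 632 at 11 AM, 661 at 3 PM, 93.2 at 7 PM and 697 at 11 PM, so the 7 PM array, one of the highest for STAR and NR5A1, was its lowest. EP300, a histone acetyltransferase, was highest at 3 PM (776) and lowest at 11 PM (502), and NCOA2, a nuclear receptor coactivator, was highest at 7 AM (775) and lowest at 11 AM (417).

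Genes of mitochondrial cholesterol import and its partners had mixed courses. Of 18 listed, 15 were measured and 13 tested, with ACBD3 and STARD5 past the unadjusted threshold for the cosine and a median of 0.53. By day 4 were higher and 9 lower (median -0.09). ACBD3, a protein that binds TSPO, had 385 at 3 AM, 985 at 7 AM, 565 at 11 AM, 461 at 3 PM, 309 at 7 PM and 361 at 11 PM. It peaked at 8.52 h, 2.54 times its trough, and was lowest on the array where TSPO was highest. STARD5, a cytosolic relative of STAR, had 229 at 3 AM, 277 at 7 AM, 189.8 at 11 AM, 226 at 3 PM, 112 at 7 PM and 90 at 11 PM, and peaked at 8.76 h. Its 2 lowest arrays were the 2 highest of STAR. SLC25A5, an adenine nucleotide carrier, and VDAC2, a channel of the outer mitochondrial membrane, both named after their values were seen, had the same 2 highest arrays as STAR. DBI, an acyl-CoA-binding protein that is a ligand of TSPO, was highest at 3 AM (1639), where TSPO was lowest, and is named here after its values were seen. ACBD3 and STARD5 were higher and DBI lower by day at the unadjusted threshold.

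**Figure D4:**
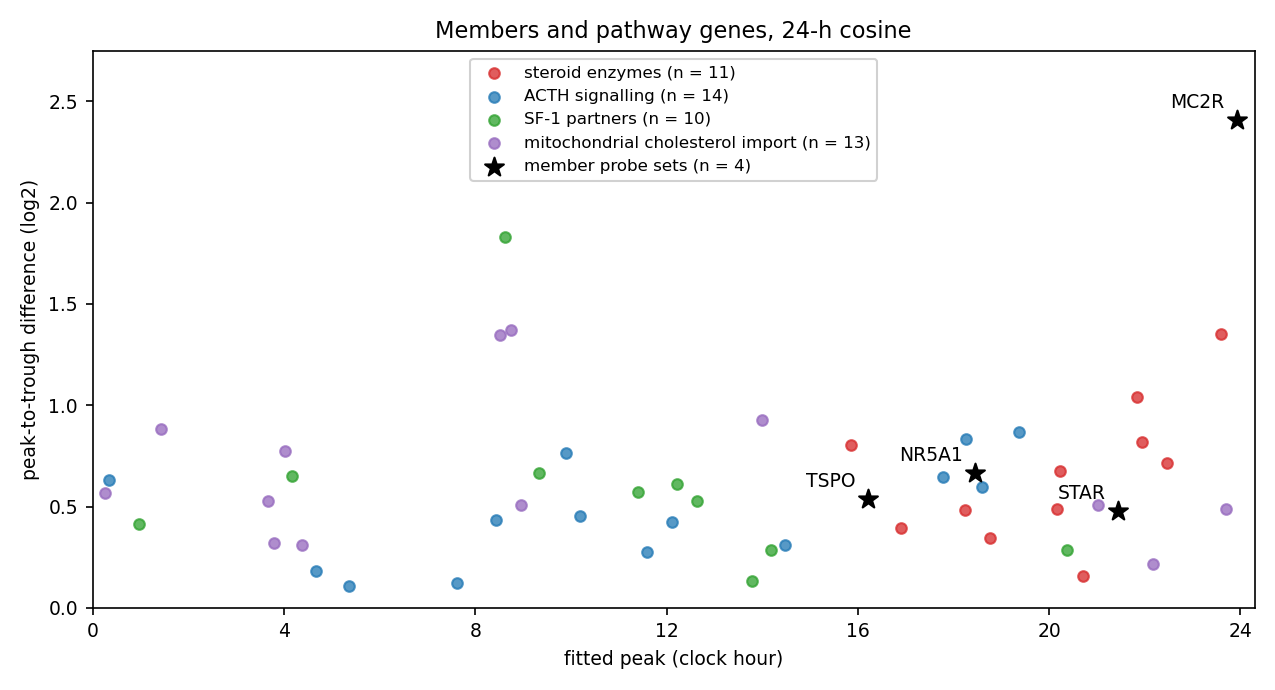
Each point is a tested gene, with the clock hour of its fitted peak on the x axis and its log2 peak-to-trough difference on the y axis, coloured by list, and stars are the 4 member probe sets that passed the filter on level. The 11 steroid enzymes lie between 15.9 h and 23.6 h, a span that also holds STAR (21.4 h), NR5A1 (18.5 h) and TSPO (16.2 h). Peaks of the other lists ran from 0.34 h to 19.4 h for ACTH signalling and from 0.97 h to 20.4 h for SF-1 partners. For mitochondrial cholesterol import they ran from 0.27 h to 23.7 h. They were not evenly spread within these limits. The span of the steroid enzymes was read from these same peaks, and the share of all genes in it was not counted. No point passed adjustment over all genes.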

How the data were processed

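The values the authors deposited are linear intensities, 1 for each probe set on each array, from 0.1 to 40394. Per the labels' protocols, total RNA was copied from an oligo-dT primer with a T7 promoter, transcribed into biotin-labelled RNA and put on an Affymetrix array. The 2% trimmed mean of each array was between 325.04 and 325.09, so the deposited intensities were already scaled; the software was not given in the sources used here. Of the 22283 probe sets 68 are controls. The platform annotation names 1 gene for 19065 of the others, several for 1043 and none for 2107, and only single-gene probe sets named a gene.

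The intensities were converted to log2(value + 1) and fitted with limma 3.58.1 in R 4.3.3, with Benjamini-Hochberg adjustment and a threshold of 0.05. The cosine fit leaves 3 residual degrees of freedom. Its spread is that of single animals around the curve, any misfit of the cosine shape included. That spread was drawn toward a value common to all probe sets, with 4.52 prior degrees of freedom in the filtered fit. The p-values measure no more than this moderated spread. Genes were represented by their brightest single-gene probe set, of which 7164 of 11963 passed the same filter. The cosine fit, the day against night contrast and the exact order test were tried on simulated data in their main setting. The alternatives and the correlations were not. Members and gene lists were chosen with earlier results of these data known. Named genes are the members, the 2 genes with the smallest cosine p in each pathway list and the 3 genes most like each member. Alternatives covered the filter, unit, normalization, pseudocount, prior, age, arrays left out and the division of the day. The number of arrays limits the precision.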

Additional observations from a re-analysis of the deposited data

How the results depend on the processing

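No member passed adjustment over all probe sets under any alternative run; the lowest adjusted p was 0.370, for day against night on 217434_at of MC2R centred on cortex markers. With 1 array left out, the log2 peak-to-trough difference ran from 0.29 to 0.77 for STAR, 0.48 to 0.97 for NR5A1, 0.31 to 1.03 for TSPO and 0.64 to 3.47 for MC2R. The day-minus-night difference ran from -0.51 to -0.14, -0.44 to -0.01, -0.24 to 0.38 and -1.90 to 0.02 (0.0159, without 11 AM). On 217425_at the cosine ran from 0.26 to 1.10 and the contrast from -0.44 to 0.23. Probe sets past adjustment numbered 0 for each array left out in both tests, those at an unadjusted p under 0.05 from 521 to 799 for the cosine and 544 to 655 for day against night, and members of that filtered fit among them from 0 to 1, that being MC2R without 7 AM. In the fit with no filter, the cosine of 217434_at passed the unadjusted threshold without 3 AM, without 11 PM, without 3 AM and 3 PM, with a pseudocount of 50, with age as a covariate and centred on cortex markers.

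With age as a covariate the cosine of STAR was 2.12, of NR5A1 1.78, of TSPO 2.99 and of 217425_at 2.42, with peaks moved by over 6 h and sizes above the observed ranges; that of 217434_at was 8.97, also above its range, with a peak at 7.34 h. On the probe set 217425_at the MC2R cosine was 0.27 and on 217434_at it was 2.74, both with opposite peaks, and day against night on 217434_at was 2.19. On 217425_at the cosine without 11 PM was 0.61, and day against night was 0.09 without 3 AM, 0.10 without 3 PM, 0.23 without 7 PM or without both 3 AM and 3 PM, 0.26 with the day at 11 AM to 7 PM and 0.12 centred on cortex markers. Without 3 AM and 3 PM the TSPO contrast was -0.14 and 1 member, MC2R, passed the unadjusted threshold. With the day at 11 AM to 7 PM the NR5A1 contrast was 0.30. Without the 2 arrays farthest from the median, r was 0.70 for MC2R and NR5A1 and -0.11 for STAR and NR5A1.

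Probe sets at an unadjusted p under 0.05 in the cosine and in day against night numbered 1141 and 1117 with no filter, 347 and 376 with the stricter filter and 398 and 386 with 1 probe set per gene, where other numbers were tested. Centred on cortex markers 1086 passed the unadjusted cosine. After adjustment 1 passed the cosine with the stricter filter and 1 day against night centred on cortex markers. Apart from fewer probe sets tested or arrays used, the cause was not tested. No paired analysis was possible because no clock time was sampled in more than 1 animal. The table holds no detection calls, so only the filter on level guards against dim probe sets.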
